A study of Vitis vinifera and Vitis riparia and Vitis amurensis with 189 samples.

Results

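Late risers are genes whose transcripts stayed near their dormant level in the first days of warmth and were much higher at the end of sampling, when budburst was seen, in all 4 grapevine genotypes studied. They were chosen on L, the log2 of CPM plus 1, where CPM is the count scaled to a common library total, averaged over the libraries of a genotype and day. A gene was kept where L averaged at least 2 over all libraries. It also had to differ from day 0 by less than 0.5 on day 1 and by less than 0.75 on day 3, in either direction, and be at least 2 higher on the last day, in each of the 4 genotypes. Of 42394 genes, 28 met the rule, although up to 200 could have been taken, and the 28 are ranked by the smallest of their 4 rises. Days 0, 1, 3 and the last day, and the mean level, therefore chose the genes, and their values are given here as a description with no test.

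Buds on dormant grapevine canes hold a preformed shoot in an arrested, cold hardy state. When buds that have had enough winter chill are warmed, they first lose cold hardiness, which is called deacclimation, and then swell until the bud scales part and green tissue shows. This shift includes the return of water and sugar transport, cell division and wall loosening, and the greening of leaf primordia. The deposited identifiers are paired with no gene names in the sources used here, so the members' roles cannot be given and the bud label could not be checked against marker genes. The 2 members named below are given by identifier and the other 26 by rank and value.

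The wild species Vitis amurensis, an East Asian vine labelled PI588635, gave 32 libraries from days 0 to 10 without day 6. Vitis riparia, a North American vine labelled PI588275, gave 47 from days 0 to 12. The labels give 2 clonal vines of each wild species in a repository of cold hardy germplasm. The cultivated vines were Cabernet Sauvignon, with 58 libraries (days 0 to 17), and Riesling, with 52 (days 0 to 15). These are Vitis vinifera, grown commercially. In every group, single-node cuttings stood in water at room temperature and buds were frozen day by day, with 2 to 6 libraries a day and 3 of each genotype on days 2, 7 and 9, except 4 of Cabernet Sauvignon on day 7. Nothing in the labels says which vine a bud came from, so p-values measure the spread between these samples only. Wild against cultivated also divides the samples by growing site and by distance from the V. vinifera annotation, and these cannot be told apart.

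Libraries held 168521 to 21262793 gene counts, and 14 held under 1000000. A level of 3 counts, the smallest amount taken as seen, equals between 0.141 and 17.8 CPM, depending on the library's total. On days 5, 8 and 11 the labels of Cabernet Sauvignon and Riesling went against the transcripts. A library's marker share was the mean CPM of the labelled cultivar's markers over the sum of both cultivars' mean marker CPM. In each of the 21 libraries of these days this share was at most 5.04%. Another 3 cultivar libraries, 2 of Cabernet Sauvignon on day 6 and 1 of Riesling on day 4, had a share of 55.6% to 76.2%. Markers were 3 genes of Cabernet Sauvignon and 6 of Riesling, picked in the same data. None of these libraries was used by the rule's contrasts or in a group compared below. They did enter the rule's mean level, the day courses, and the shared spread, scaling and expression filter of the fits. Those of days 5, 8 and 11 are drawn as open points, and cultivar values on these days belong to libraries so labelled. Within groups, 12 of 235 pairs of libraries were closer to each other than any pair in groups of 2 or 3, though they still differed by more than sampling noise. None of these was on day 2, 7 or 9. Some were on days 0, 1 and 3, which the rule averaged, and all counted as separate libraries in the fits. Reads that fell in no annotated gene took over 25% of a library in 37 libraries, 29 of them from day 9 on.

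The limits of the rule cut through a continuous range of genes. The member closest to the limit on the last day had a smallest rise of 2.08, and the nearest gene left out had 2.00. On day 1 the closest values were 0.494 inside and 0.514 outside, and on day 3 they were 0.728 inside and 0.782 outside. In all, 1514 genes had a rise of at least 2 to the last day in all 4 genotypes at the same mean level. Of these, 81 were within 0.75 of day 0 on day 3 in all 4 genotypes, and V. amurensis set the narrowest limit, with 174 within it, against 370 in V. riparia, 502 for Cabernet Sauvignon and 463 for Riesling. The list also depended on scaling and libraries. With CPM from TMM (trimmed mean of M-values) library sizes 20 genes met the rule, 12 of them among the 28, and without libraries with more than 25% of reads outside genes 18 met it, again 12 of them members.

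The members together held a small share of all counts in dormant buds and a larger one at the end. Their summed level per library on the last day was 3150 to 4390 CPM in V. amurensis, against 407 to 789 CPM on day 0. In V. riparia it was 2110 to 3480 CPM on the last day and 239 to 304 CPM on day 0. Cabernet Sauvignon had 2560 to 4570 CPM on the last day and 250 to 285 CPM on day 0, and Riesling had 3650 to 4300 CPM and 237 to 371 CPM. One member, ranked 25, made up 33.2% to 43.1% of the summed CPM on the last day and 54.2% to 66.5% on day 0, averaged per genotype and not corrected for gene length, which the files do not give. On the last day 6 to 8 members were at 100 CPM or more per genotype and none was under 1 CPM, whereas on day 0 1 was at 100 CPM or more and 6 to 13 were under 1 CPM. In buds as a whole, more RNA of a gene per cell cannot be told apart from more cells of a kind that makes it.

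**Figure D1:**
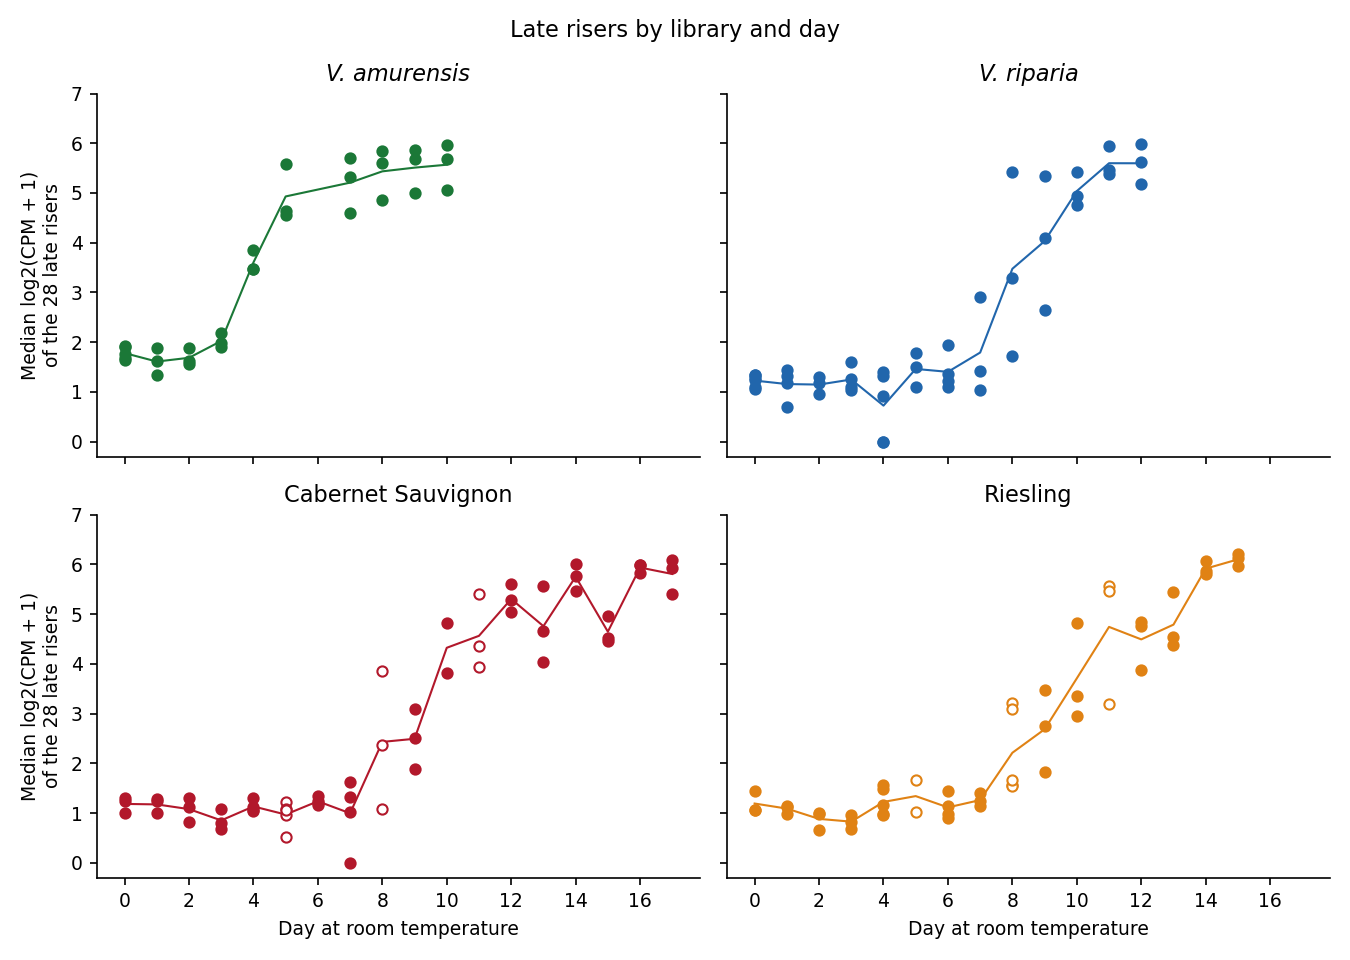
Median log2(CPM + 1) of the 28 late risers (vertical axis) in every library by day at room temperature (horizontal axis), one panel per genotype. Points are libraries, lines join the means of a day, and open points are cultivar libraries of days 5, 8 and 11, which carry the other cultivar's markers. Medians stay below 2.2 through day 3 in every panel, climb on days 4 and 5 in V. amurensis and from day 7 or 8 in the others.

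The climb came at different times in the 4 genotypes. In V. amurensis the library medians of L were 1.91 to 2.18 on day 3, 3.47 to 3.86 on day 4 and 4.56 to 5.58 on day 5. All 28 members had a higher mean on day 4 than on day 3, by a median of 1.23, and 27 were higher again on day 5. After day 5 the median change from one sampled day to the next was at most 0.315. By contrast, V. riparia stayed at 1.09 to 1.94 on day 6. It then had 1.05, 1.43 and 2.90 on day 7, 5.41, 1.72 and 3.30 on day 8, and 2.65, 4.10 and 5.34 on day 9, and all 3 libraries were at 4.75 or above from day 10.

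The cultivars climbed later and over more days. Cabernet Sauvignon libraries had medians of 0, 1.03, 1.33 and 1.63 on day 7, where the library at 0 held 263961 counts. Values of 1.89, 2.51 and 3.09 followed on day 9, and 3.82 and 4.82 on day 10. The largest step between days, a median of 1.61, was between days 9 and 10, with 25 of 28 members up. Riesling had 1.14 to 1.40 on day 7, 1.82, 2.76 and 3.48 on day 9, 2.96, 3.35 and 4.82 on day 10, and 5.82 to 6.06 on day 14. Its median change was at most 0.976 between any 2 successive days, between days 13 and 14, when 27 members went up.

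In V. riparia the libraries of one day differed most while the members were climbing. On day 8 the highest and lowest library medians were 3.70 apart, and 26 of 28 members had their highest value in the same library. That library and the lowest one held 3595952 and 5193690 counts, with 10.6% and 16.6% of reads outside genes. On day 9 in V. riparia the spread was 2.69, with 25 members highest in 1 library. Libraries labelled Cabernet Sauvignon spread over 2.78 on day 8, with 26 members highest in 1 library. Those labelled Riesling spread over 2.37 on day 11, with 16, and over 1.86 on day 10, with 25. V. amurensis differed from this, with a spread of only 0.390 on day 4, where 19 members were highest in 1 library, and of 0.873 to 1.11 from day 5 to day 10. Before the climb, on day 2, the spread was 0.322 in both V. amurensis and V. riparia, 0.466 for Cabernet Sauvignon and 0.346 for Riesling, and on the last day it was 0.250 to 0.913.

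**Figure D2:**
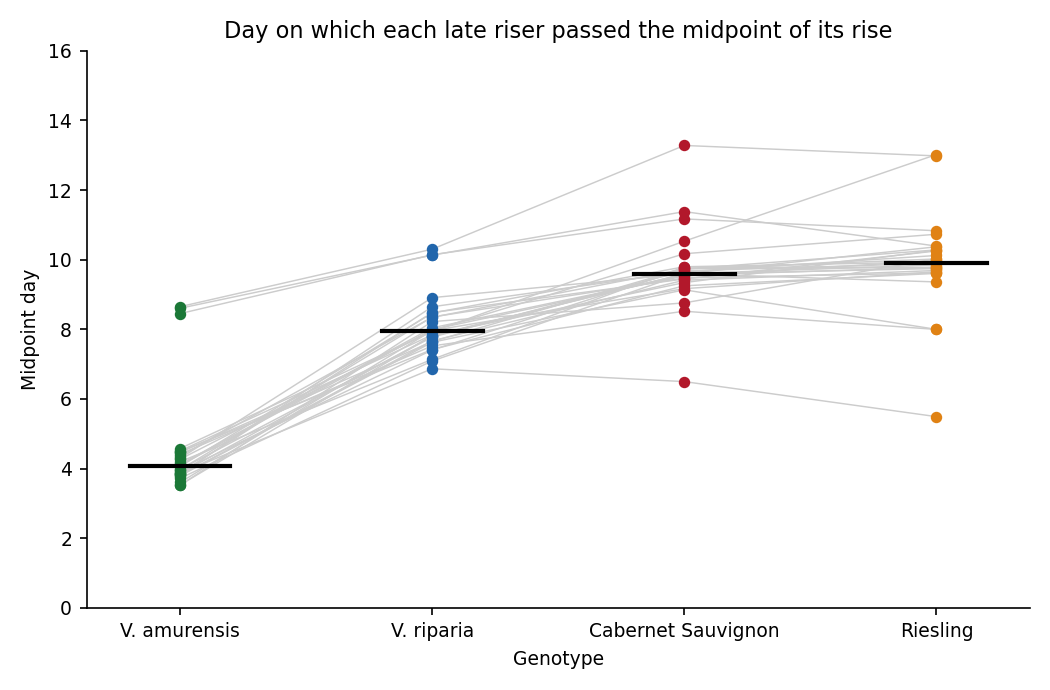
Midpoint day of each of the 28 late risers (points, joined by a line per gene) in the 4 genotypes, with the median as a black bar. The medians are 4.08 in V. amurensis, 7.95 in V. riparia, 9.59 for Cabernet Sauvignon and 9.92 for Riesling, and 3 genes in V. amurensis lie apart at days 8.45 to 8.65.

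To date the climb gene by gene, the midpoint day was taken as the day on which the mean L last crossed the midpoint between day 0 and the last day. Its median over members was 4.08 in V. amurensis, 7.95 in V. riparia, 9.59 for Cabernet Sauvignon and 9.92 for Riesling. Leaving out replicates 1, 2 and 3 in turn gave medians of 4.02 to 4.06, 7.52 to 8.42, 9.44 to 9.89 and 9.63 to 10.3 in the same genotypes. All 28 members had their midpoint day earlier in V. amurensis than in each other genotype, with median gaps of 3.82 days to V. riparia, 5.48 to Cabernet Sauvignon and 5.88 to Riesling. In V. riparia 27 members were earlier than in Cabernet Sauvignon and 27 earlier than in Riesling. Between the cultivars, 20 were earlier in Cabernet Sauvignon, by a median of 0.242 days, which is within the range of those leave-out values. Without days 5, 8 and 11 the cultivar medians were again 9.59 and 9.92. The counts were then 27 earlier in V. amurensis than in Cabernet Sauvignon, 26 earlier in V. riparia than in Cabernet Sauvignon and 22 earlier in Cabernet Sauvignon than in Riesling. As a share of each series, the median stood at 40.8% (V. amurensis), 66.2% (V. riparia), 56.4% (Cabernet Sauvignon) and 66.1% (Riesling). Near budburst is thus a looser description in V. amurensis, where the level was reached by the middle of sampling.

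**Figure D3:**
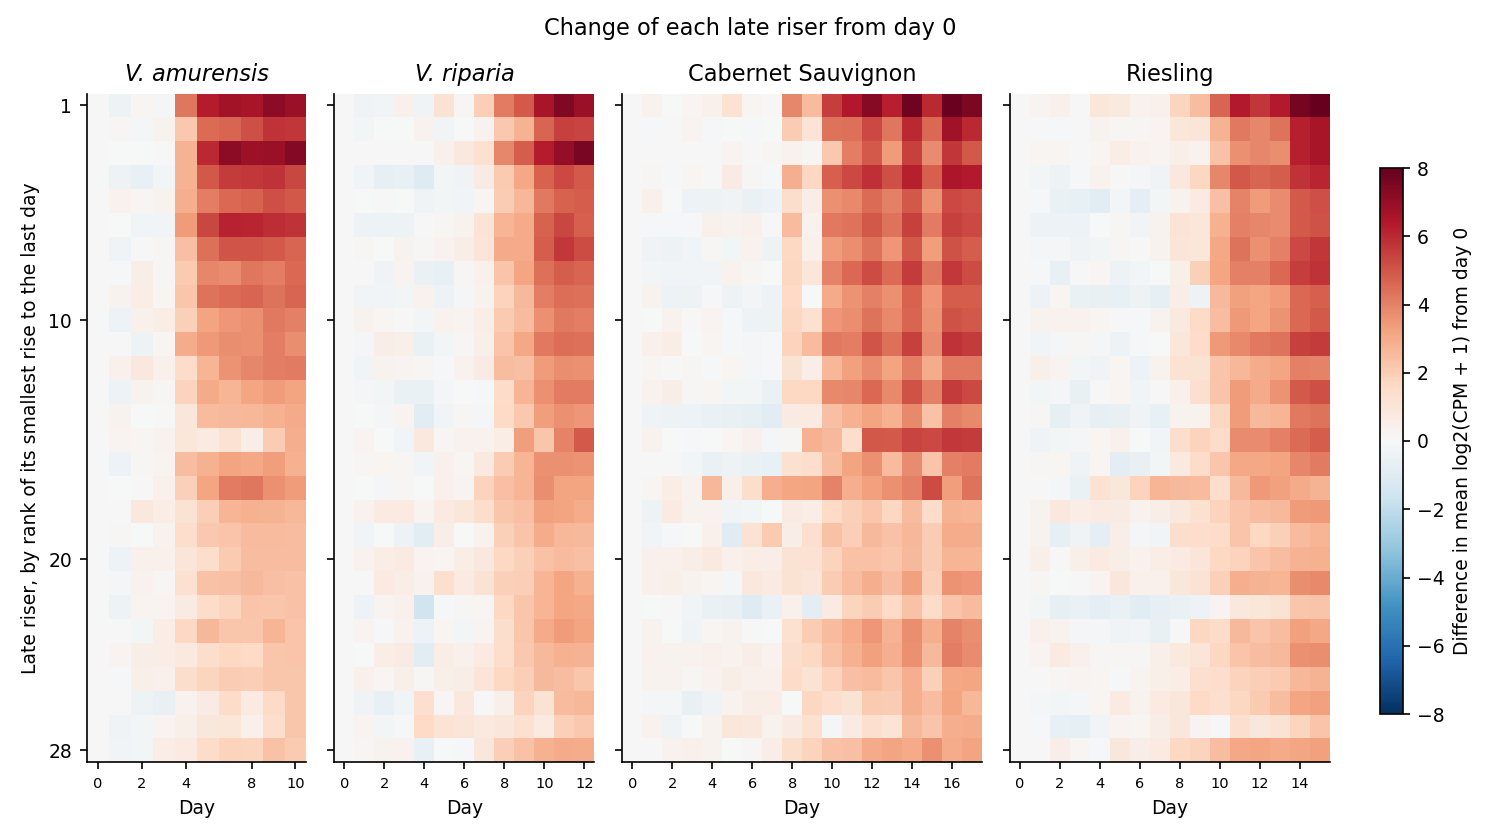
Mean log2(CPM + 1) of each late riser minus its day 0 mean (colour, red higher and blue lower) by day, one panel per genotype and one row per gene in rank order from 1 at the top to 28. Most rows turn red together, on day 4 in V. amurensis, where rows 15, 26 and 27 turn red later, and row 17 turns red early in the cultivars.

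The members did not all keep the same time. Members ranked 15, 26 and 27 reached the midpoint on days 8.45 to 8.65 in V. amurensis, while the other 25 did so between days 3.52 and 4.58. The same 3 were also the last in V. riparia, on days 10.1 to 10.3, where all others were done by day 8.91. In Cabernet Sauvignon they had days 11.2 to 13.3, but for those ranked 15 and 26 this rested on day 11. Without days 5, 8 and 11 they had days 10.2 and 8.29, while the one ranked 27 stayed the last at 13.3. In Riesling those ranked 15 and 26 had days 10.4 and 10.8, and the one ranked 27 came last together with the member ranked 22. The member ranked 17 was the first in 3 genotypes, on day 6.50 in Cabernet Sauvignon, 5.49 in Riesling and 6.87 in V. riparia, and without days 5, 8 and 11 it was still the first in both cultivars. Across the 28 members, Spearman's rho of the midpoint day was 0.302 to 0.708 between pairs of genotypes, and 0.208 to 0.693 without those days of the cultivars, as a description over genes measured in the same libraries. The highest day mean fell on the last day for 25 members in Riesling, against 9 in V. amurensis, 5 in V. riparia and 6 in Cabernet Sauvignon.

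Vitvi02g00108, ranked 1, had the largest smallest rise, 6.88 on the L scale. It was at 297, 198 and 214 CPM on day 10 in V. amurensis, and at 0 to 2.49 CPM in the 5 libraries of day 0. In V. riparia it was at 140, 213 and 148 CPM on day 12, with 0 to 1.54 CPM in the 6 libraries of day 0. Cabernet Sauvignon had 174, 367 and 111 CPM on day 17 and at most 0.186 CPM on day 0. Riesling had 245, 480 and 300.3 CPM on day 15 and at most 0.495 CPM on day 0. The gene was thus at or near the counting floor in dormant buds of each genotype and above 100 CPM in each library of the last day.

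Days 2 and 9 entered the rule only through the mean level, but they are not independent of the choice, as set out below. Vitvi02g00108 was at 383, 176 and 319 CPM on day 9 in V. amurensis, against 1.32, 1.22 and 1.04 CPM on day 2. The log2 fold change was 8.04 ± 0.52 (SE) with an adjusted p of 2.15e-12 (edgeR's quasi-likelihood test, Benjamini-Hochberg over all genes tested). In V. riparia day 9 gave 15.2, 34.7 and 125 CPM, against 3 counts in the 3 libraries of day 2. The pooled ratio was 439 (95% exact counting interval 150 to 2130), with an adjusted p of 0.000339 from the fit. All day 9 libraries were above all day 2 libraries in both wild species. Cabernet Sauvignon had 3.61, 8.02 and 4.19 CPM on day 9 and 1 count on day 2, a ratio of 64.6 (11.2 to 2590, counting error only) with an edgeR adjusted p of 0.00803. In Riesling the groups overlapped, with 55.5, 0 and 5.77 CPM on day 9, against 0.397, 1.23 and 0.561 CPM on day 2. That is a log2 fold change of 4.77 ± 1.55 (SE; edgeR adjusted p = 0.0300), and without day 9 replicate 1 it was 2.56 with an adjusted p of 0.336. That library held 864678 counts. Day 9 replicate 2, the library at 0 CPM, held 790198 counts, so 3 counts there equal 3.80 CPM, above all the day 2 values. The overlap thus rests on a library too shallow to resolve the day 2 levels. Those levels themselves rest on 6 counts in all, so the Riesling comparison is poorly resolved on both days.

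Vitvi06g01275, ranked 4, had the largest smallest fold change between days 9 and 2 among the other members that passed in all 4 genotypes. Because these 4 comparisons chose it, its fold changes and adjusted p-values for them are a description and no evidence of a rise. It was at 190, 93.1 and 95.7 CPM on day 9 in V. amurensis, against 0.203, 0.522 and 0.415 CPM on day 2. That is a log2 fold change of 8.53 ± 0.67 (SE; edgeR adjusted p = 8.44e-11). V. riparia had 7.42, 14.3 and 66.0 CPM on day 9, against 0.255, 0.984 and 0.223 CPM on day 2, a change of 5.84 ± 1.18 (adjusted p = 0.000294). In both species the 2 days did not overlap. Cabernet Sauvignon had 5.42, 3.27 and 0.897 CPM on day 9, against 1 count on day 2, a ratio of 23.0 (3.78 to 944, counting error only; edgeR adjusted p = 0.0198). Without day 9 replicate 1 or 2 or day 2 replicate 3 its adjusted p was 0.0524, 0.0654 and 0.118. Riesling had 25.4, 0 and 3.59 CPM on day 9, against 2 counts on day 2, a ratio of 23.8 (6.21 to 202; edgeR adjusted p = 0.0219), and without day 9 replicate 1 the adjusted p was 0.182. Low counts on day 2 thus leave the size of the change in the cultivars poorly known.

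**Figure D4:**
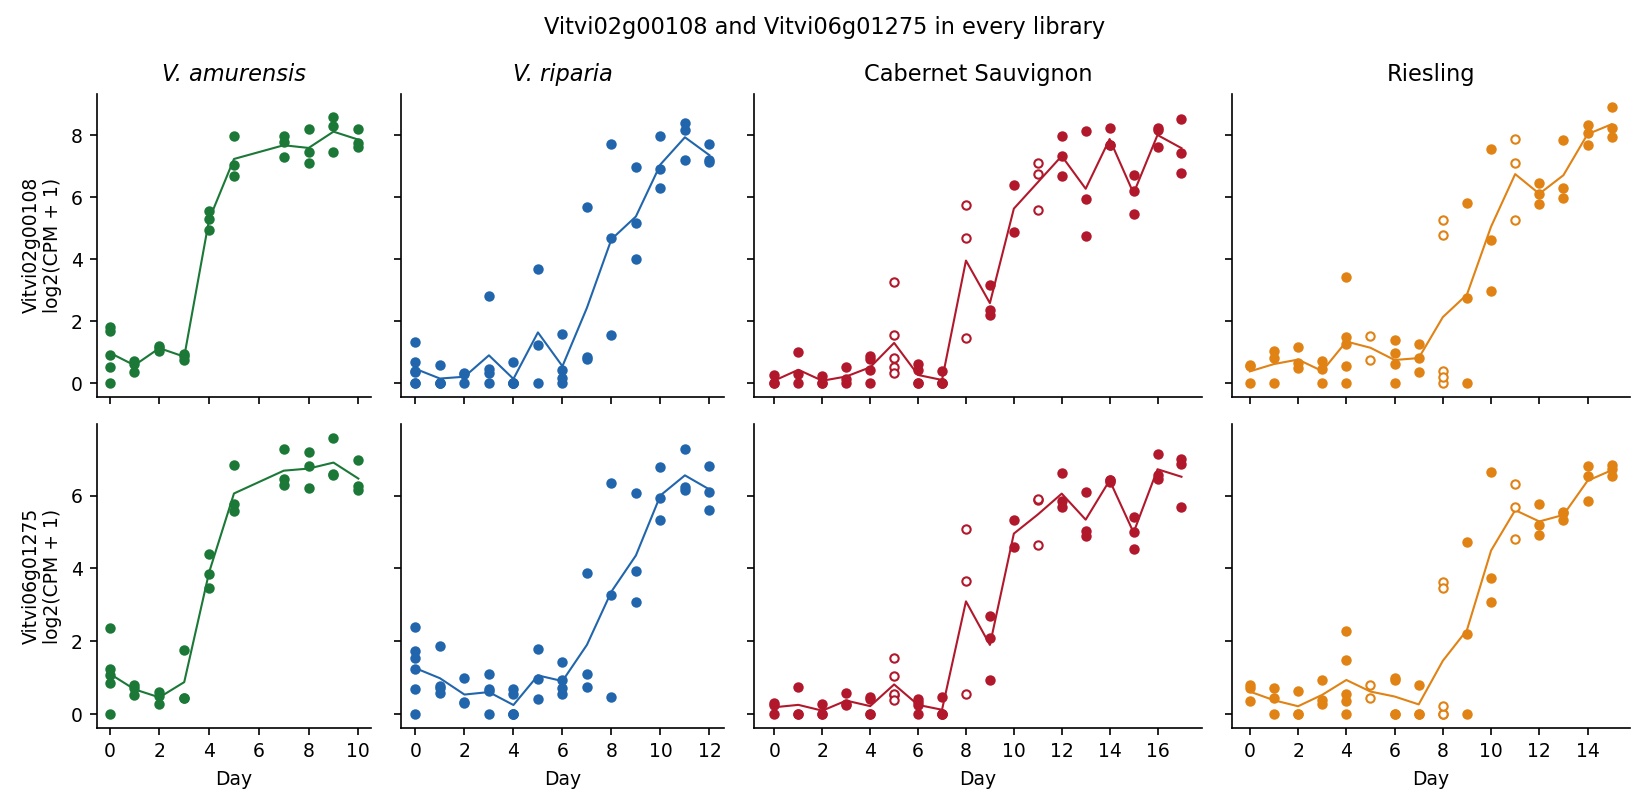
log2(CPM + 1) of Vitvi02g00108 (top row) and Vitvi06g01275 (bottom row) in every library by day, one panel per genotype. Points are libraries, lines join day means, and open points are cultivar libraries of days 5, 8 and 11. Both genes stay low through day 3 and climb between days 3 and 5 in V. amurensis and from day 7 or 8 in the other genotypes.

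Days 2 and 9 ask, with libraries that only entered the rule through the mean level, whether the members were up by a fixed day. These days are not independent of the choice. Day 2 lies between days 1 and 3, which the rule held near day 0. In V. amurensis day 9 is the day before the last, for which the rule required a rise. A rise was thus largely built in there. In the other genotypes too, members low through day 3 reached the mean level only through later libraries, day 9 among them. The calls in those genotypes are therefore not free of the choice either. The shares of all genes below are no chance level for the members. All 28 passed edgeR's expression filter in each genotype. In V. amurensis 28 of 28 were higher on day 9 than on day 2 at an adjusted p under 0.05, where 23.2% of all genes tested were higher. The median log2 fold change was 4.04, against -0.0065 over all genes. V. riparia had 27 of 28 higher, against 16.4% of all genes, with a median of 3.43. The member that did not pass, ranked 21, had 1.64 ± 0.65 (SE) with an adjusted p of 0.0579. None of the 28 was lower in any genotype.

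In the cultivars fewer members had passed by day 9. Cabernet Sauvignon had 18 of 28 higher, against 10.5% of all genes, with a median log2 fold change of 2.37. Riesling had 17 of 28 higher, against 9.38% of all genes, with a median of 2.60. With members that had no count on day 2 set at the bound that 3 counts over that day allow, the medians were 2.05 and 2.37, and those of the wild species kept their values. Taken over the genotypes, 15 members passed in all 4, 4 in 3 and 9 in 2. Single libraries weighed heavily in the cultivars. The count fell to 7 without day 9 replicate 3 or day 2 replicate 3 of Cabernet Sauvignon. In Riesling it was 7 without day 9 replicate 3 and 9, 11 and 11 without day 2 replicates 1, 2 and 3. When only days 2 and 9 were fitted, 13 members passed the expression filter in Cabernet Sauvignon and 10 in Riesling, and 3 and 1 of them were higher.

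Earlier days separated the genotypes further. On day 5, a comparison added after the values were seen, 25 of 28 members were higher than on day 2 in V. amurensis, against 12.8% of all genes, with a median log2 fold change of 3.10. The 3 that did not pass are those ranked 15, 26 and 27. In V. riparia none of the 28 passed on day 5 with edgeR or with DESeq2, where 3.15% of all genes passed in either direction, 3 members had an unadjusted p under 0.05, and the median was 0.41. A count of 0 is near that share of all genes, so the count alone is no result about the members. On day 7, 26 were higher in V. amurensis, against 22.4% of all genes, and 6 in V. riparia, against 7.49%. The V. riparia count was 1 without day 7 replicate 3 or day 2 replicate 2, and 2 without either other day 2 library. Cabernet Sauvignon had 2 higher on day 7, against 7.05% of all genes, and 0 without day 2 replicate 3 or 1 without day 2 replicate 2. Riesling had 1, against 4.14%. Both cultivar shares are near that of all genes, so on day 7 they are no result about the members, whose median log2 fold changes were 0.19 and 0.30.

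**Figure D5:**
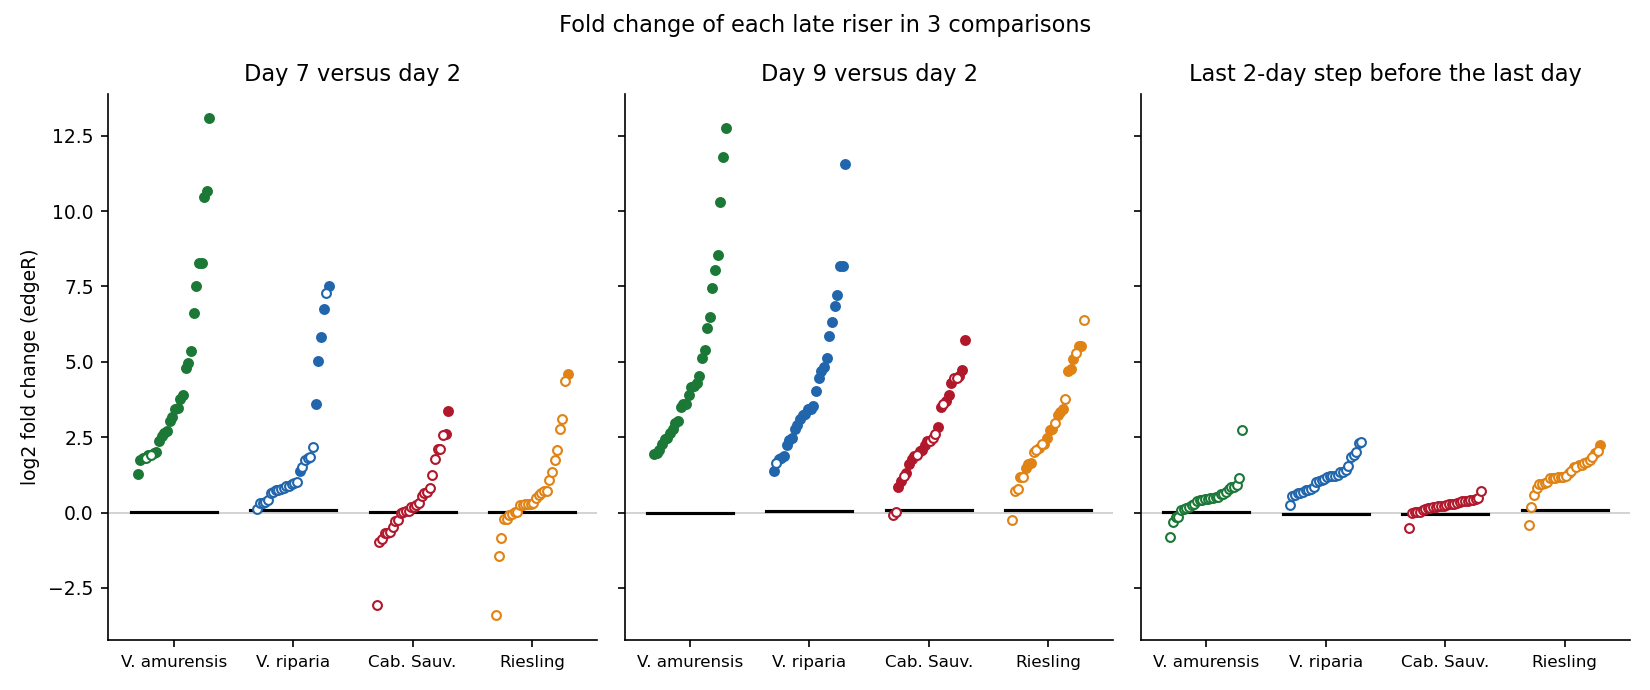
log2 fold change (edgeR) of each late riser on day 7 versus day 2, day 9 versus day 2, and in the last 2-day step before the last sampled day (days 9 and 7, 11 and 9, 16 and 14, and 14 and 12 in order of genotype). Filled points passed an adjusted p under 0.05, open points did not, and black bars mark the median of all genes tested. Members of V. amurensis are well above 0 in the left panel, and all genotypes are above it in the middle panel except for 1 member each of the cultivars. At the right most points of each genotype lie above the bars, by more in V. riparia and Riesling than in the others.

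The last 2-day step before the final day asks whether members were still climbing. In V. amurensis, day 9 against day 7, 0 of 28 passed with edgeR or DESeq2, where 1.75% of all genes passed, and 6 had an unadjusted p under 0.05, with a median log2 fold change of 0.44. Without day 9 replicate 1, 1 passed. In V. riparia, day 11 against day 9, 0 passed with edgeR or DESeq2, where 0.0688% of all genes passed. There 7 had an unadjusted p under 0.05, all 28 log2 fold changes were above 0, and the median was 1.15. Without day 9 replicate 3, the highest library of that day, 4 passed. In Cabernet Sauvignon, day 16 against day 14, 0 passed with either tool, 0 had an unadjusted p under 0.05, 0.0% of all genes passed and the median was 0.24. Riesling, day 14 against day 12, had 5 higher, against 3.72% of all genes, and 18 with an unadjusted p under 0.05, with a median of 1.20. Those 5 ranged from 1.32 to 2.23. As in V. riparia, most log2 fold changes of this step were above 0 elsewhere, for 24 members in V. amurensis, 26 in Cabernet Sauvignon and 27 in Riesling. The Riesling count was 0 without day 14 replicate 2 or day 12 replicate 3, 1 without day 14 replicate 3 and 2 without day 12 replicate 1 or 2, and it was 20 when only these 2 days were fitted.

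Cabernet Sauvignon members did not climb evenly at the end. Their library medians were 5.47, 5.77 and 6.01 on day 14, 4.46, 4.97 and 4.52 on day 15, and 5.83, 5.99 and 5.99 on day 16, so day 15 was below both neighbours with no overlap. Vitvi02g00108 was at 43.5, 104 and 72.5 CPM on day 15, against 205, 208 and 305 CPM on day 14 and 196, 291 and 301 CPM on day 16. In a comparison added after this was seen, 19 of 28 members were lower on day 15 than on the mean of days 14 and 16, against 12.9% of all genes, and 1, ranked 17, was higher, against 15.5%. The median log2 fold change was -1.41, against 0.066 over all genes. Without day 15 replicate 1 the count of calls in either direction was 7 and without day 15 replicate 3 it was 9. Reads outside genes took 12.6% to 32.1% of the day 15 libraries and 10.1% to 40.0% of those of days 14 and 16. In replicate 2, whose share was 10.1% to 12.6% on these 3 days, the medians were 5.77, 4.97 and 5.99. With only libraries that had at most 25% of reads outside genes, 0 members passed and the median log2 fold change was -1.02, from fewer libraries. Day 13 also lay below day 12, with 2 of 28 members up and a median change of -0.51.

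Differences between genotypes were tested as interactions, in one fit over all libraries. The change from day 2 to day 9 was larger in the wild than in the cultivated genotypes for 4 of 28 members, against 6.23% of all genes, and smaller for 0. The median difference was 1.08 on the log2 scale, against -0.0072 over all genes, and 26 of 28 were above 0. Those 4, ranked 10, 18, 20 and 22, differed by 2.31 ± 0.52, 1.70 ± 0.36, 0.89 ± 0.29 and 2.13 ± 0.50 (SE), with edgeR adjusted p of 0.000853, 0.000368, 0.0300 and 0.00121. The member ranked 18 had log2 fold changes of 2.08 in V. amurensis and 1.82 in V. riparia, but -0.092 for Cabernet Sauvignon and 0.73 for Riesling. For Vitvi02g00108 the difference was 2.90 ± 3.17 (SE; edgeR adjusted p = 0.675). Leaving out 1 library gave 2 to 7 calls. The count was 7 without V. riparia day 9 replicate 1 and 2 without V. amurensis day 2 replicate 2 or 3 or day 9 replicate 2, V. riparia day 2 replicate 1 or 3 or day 9 replicate 3, Cabernet Sauvignon day 2 replicate 1 or 3, or Riesling day 2 replicate 2 or 3 or day 9 replicate 2.

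Within each class the day 9 differences were not detected. V. amurensis minus V. riparia had 0 of 28 with edgeR or DESeq2, where 6.75% of all genes passed, and 1 unadjusted p under 0.05. Its median was 0.33, and without V. riparia day 9 replicate 3, 3 passed. Cabernet Sauvignon minus Riesling had 0 of 28 with either tool, 0 unadjusted, and 0.0% of all genes passed, with a median of -0.37. On day 5 the wild species did differ, in a comparison added after the values were seen. The change from day 2 to day 5 was larger in V. amurensis for 11 of 28 members, against 2.37% of all genes, with a median difference of 2.85 and 19 unadjusted. For Vitvi02g00108 the difference was 2.96 ± 3.1 (SE; edgeR adjusted p = 0.735) and did not pass. For Vitvi06g01275 it was 6.64 ± 2.02 (SE; edgeR adjusted p = 0.0411). It was at 53.4, 113 and 47.0 CPM on day 5 in V. amurensis, against 0.965, 0.340 and 2.45 CPM in V. riparia. Without V. riparia day 5 replicate 3, the highest library of that day, 18 passed. The count was 8 without V. amurensis day 2 replicate 2, 5 without replicate numbers above 3, and 5 with at most 25% of reads outside genes.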

How the data were processed

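RNA of buds was sequenced in 189 libraries. The deposited values are whole-number counts per gene, not normalized. Cutadapt, STAR, HTSeq and DESeq2 are named in the submitters' processing notes, with no versions, and the genome build and the strand setting are not given in the sources used here. A library's 5 bookkeeping rows were left out, and the share of reads in no gene had a median of 14.5% and reached 69.0%. None of the identifiers matched the RefSeq gene table used here.

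Genotype, day and replicate came from the labels. The members, the comparisons and the alternatives were chosen with earlier results of these data known. CPM used the total gene count of a library, and a pseudocount of 1 was added before taking logs. Each genotype's counts were fitted with edgeR 4.0.16 (R 4.3.3) with a term for each of its days, TMM and filterByExpr, and tested with the quasi-likelihood test at a Benjamini-Hochberg adjusted p under 0.05 over all genes. Standard errors came from the F statistic. The 189 libraries were fitted together for differences between genotypes. DESeq2 1.42.0 and other settings were alternatives. The scripts were tested on simulated counts.

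By the naming rule, 2 members carry their identifiers, namely the one with the largest smallest rise, and the one with the largest smallest fold change on day 9 among the other members that passed in all 4 genotypes. Replicate numbers recur on every day, and the labels do not say that they mark a vine or a batch. Same-numbered libraries deviated together, with every correlation over 0.1, between days 11 and 9 in V. riparia (mean 0.191) and days 16 and 14 in Cabernet Sauvignon (mean 0.461), and between day 15 and each of days 14 and 16 in Cabernet Sauvignon (means 0.295 and 0.378), of 16 pairs of days checked. With 2 to 6 libraries a group, precision is limited mostly by their number, and counting intervals are exact 95% binomial ones that cover counting error only.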

Additional observations from a re-analysis of the deposited data

Results flagged for a closer look

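In 13 groups of 4 or more libraries, each checked on 4 measures, 11 of 52 checks found a library far from the others. A chance rate of about 1 in 20 is no fair reference here. In several of these groups most libraries had no count of the gene, so a few counts stand out. The 11 fell in 8 groups, and the 4 measures share libraries. The summed CPM of the members was 789.1 in V. amurensis day 0 replicate 3, 425.7 in V. riparia day 1 replicate 3 and 556.8 in V. riparia day 6 replicate 2, each the highest of its day. Vitvi02g00108 stood apart at 6.09 CPM in V. riparia day 3 replicate 2, 9.769 CPM in Riesling day 4 replicate 2, one of the 3 libraries with both cultivars' markers, and 8.653 CPM in Cabernet Sauvignon day 5 replicate 5, whose markers are those of the other cultivar. It also stood apart at 0.5041 CPM in V. riparia day 1 replicate 1, 0.6013 CPM in V. riparia day 4 replicate 3 and 0.3244 CPM in Cabernet Sauvignon day 7 replicate 1. Vitvi06g01275 did so at 2.646 CPM in V. riparia day 1 replicate 1 and 0.3866 CPM in Cabernet Sauvignon day 7 replicate 3.

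The change to day 9 differed between wild and cultivated genotypes for 4 members, and the change to day 5 differed between V. amurensis and V. riparia for 11, each by an interaction term.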

How the results depend on the processing

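Settings changed the counts most in the cultivars and for the list itself. Leaving out 1 library at a time gave, for day 9 against day 2, 25 to 28 calls in V. amurensis, 23 to 28 in V. riparia, 7 to 17 in Cabernet Sauvignon and 7 to 19 in Riesling. For day 7 against day 2 it gave 25 to 27, 1 to 7, 0 to 2 and 1 to 1 in the same genotypes. The late step gave 0 to 1, 0 to 4, 0 to 0 and 0 to 4. Day 5 against day 2 gave 25 to 25 in V. amurensis and 0 to 0 in V. riparia, and day 15 in Cabernet Sauvignon 7 to 20. The differences gave 2 to 7 (wild minus cultivated), 0 to 3 (V. amurensis minus V. riparia, day 9), 0 to 0 (cultivars) and 8 to 18 (V. amurensis minus V. riparia, day 5). Without 1 replicate number at a time, 17 to 20 genes met the rule, 9 to 13 of them members, and 18 met it both without replicate numbers above 3 and without libraries with over 25% of reads outside genes.

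Fitted to the compared days alone, the filter kept 15, 13 and 10 members, and the counts were 0 for V. riparia day 7, 3 for Cabernet Sauvignon day 9 and 1 for Riesling day 9, while the Riesling late step had 20. With at most 25% of reads outside genes, the counts were 1 for V. riparia day 7, 0 for the Riesling late step, 5 for the wild difference on day 5 and 0 for Cabernet Sauvignon day 15, where the median log2 fold change was -1.02 with fewer libraries. Vitvi06g01275 in Cabernet Sauvignon then had an adjusted p of 0.0739. Without replicate numbers above 3 the Riesling late step had 3 and the wild difference on day 5 had 5. The Riesling late step had 9 without cultivar libraries of days 5, 8 and 11, and 9 when those of both cultivars' markers were also left out. Without libraries under 1000000 counts, 1 member passed in the late step of V. amurensis. DESeq2 gave 9 for wild minus cultivated and 20 for the wild difference on day 5, and day 7 in place of day 9 gave 4 for V. amurensis minus V. riparia. The causes were not tested.

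With the replicate number as a block, day 9 against day 2 had 28, 27, 16 and 18 calls in V. amurensis, V. riparia, Cabernet Sauvignon and Riesling, and wild minus cultivated had 1. On these days the numbers share only a number. Where they deviated together, the block left 0 calls in the late steps of V. riparia and Cabernet Sauvignon and gave 22 on day 15, against 20 without it. Low counts on day 2 limit the size of each change, since 2 or 3 members per genotype had no count there and 2 to 6 had 1 to 3.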
